A study of Homo sapiens with 2 samples.

Results

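The 36 genes described here carry out glycolysis, move glucose and lactate across the cell membrane, or belong to the cellular response to low oxygen. They were looked up by symbol among the 33694 genes of both count matrices, and all 36 were found. Of these, 17 encode glycolytic enzymes, 4 encode glucose and lactate carriers, 2 encode pyruvate dehydrogenase kinases, 11 are known targets of hypoxia-inducible factor (HIF) and 2 encode HIF alpha subunits. The rule that lists them names genes by function and uses no measured value, although earlier results of these data were known when it was made. Their levels were measured by droplet-based 3′ sequencing of single cells derived from H9, an established human embryonic stem cell line, at 2 stages of enteric neural crest differentiation. The day 10 library came from adherent cultures on Geltrex that received no treatment beyond the induction media. The last of these media contained retinoic acid and, by the study's methods, also the GSK3 inhibitor CHIR 99021. The day 15 library came from enteric crestospheres, which floated in suspension from day 12 in a medium with FGF2 and again CHIR 99021. These lay 5 days further along the same protocol. By the study's methods, the 2 media also differed in base medium, supplements and the dose of CHIR 99021. A further inhibitor was present in the day 10 medium alone. Each library pooled 2 biological repeats that the files do not separate, so n = 1 per stage, and stage, culture format, medium, depth and library cannot be told apart. The oxygen tension of the cultures is not given in the sources used here.

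Glycolysis splits glucose into pyruvate, which lactate dehydrogenase can turn into lactate or mitochondria can oxidise. When oxygen is scarce, the prolyl hydroxylases EGLN1, EGLN2 and EGLN3 no longer mark the HIF alpha subunits for degradation, and the stabilised subunits pair with ARNT and switch on genes for glucose uptake, glycolysis, lactate export and blood vessel growth. The alpha subunits are controlled mainly at the level of the protein, so their messenger RNA says little about their activity. Neural crest cells, like many migrating and dividing progenitors, are known to rely on glycolysis.

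The level of a gene in a class of cells is its count of unique molecular identifiers (UMIs) over all UMIs of those cells, scaled to 1000000 (CPM). The day 10 matrix held 9627 cells with 70488169 UMIs and the day 15 matrix held 6320 cells with 84976253 UMIs. The annotated enteric neural crest cells (ENCCs) had a median of 7004 UMIs per cell at day 10 and 11082 at day 15. The authors' quality filter kept 7295 and 5336 cells. Among kept cells, 4921 at day 10 and 4934 at day 15 were annotated as ENCCs, the progenitors of the enteric neurons and glia. These cells carried their markers SOX10 (120 CPM at day 10, 103 CPM at day 15) and FOXD3 (18.4 and 23.1 CPM). The 2 libraries shared 102 cell barcodes. All intervals are at 95% and cover counting error only, no p-value was computed, and a gene was called higher or lower when log2(CPM + 1) differed by at least 1 (2-fold) and the level reached 10 CPM in 1 of the classes compared.

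In ENCCs the module was higher at day 15 than at day 10 as a whole, but its parts differed widely. Summed over the 36 genes, the level went from 14393 CPM (interval 14354 to 14431) to 19579 CPM (19543 to 19616), a ratio of 1.36. Of the 33 members that reached 10 CPM, 15 were called higher and 0 lower, while over all 7101 genes compared 8.1% were called higher and 5.39% lower. Among the 15, SLC16A3, PDK3, PFKP, VEGFA, EGLN1, EGLN3, ANKRD37 and ADM were under 10 CPM at day 10. They passed the filter through day 15 alone, so they could not have been called lower. The same filter held for all genes. The median log2 ratio of the 33 members was 0.75, against -0.14 for all genes compared. Over all genes, 575 were called higher and 383 lower with this scaling, 745 and 258 with TMM and 739 and 260 with median-ratio scaling, and 16 members were called higher with either of the latter. The counting interval of the ratio lay above 1 for 26 of the 36 members, below 1 for 8, and held 1 for CA9 and EPAS1, which both stayed under 1 CPM. These counts were not made over all genes, so they do not set the members apart from them.

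**Figure D1:**
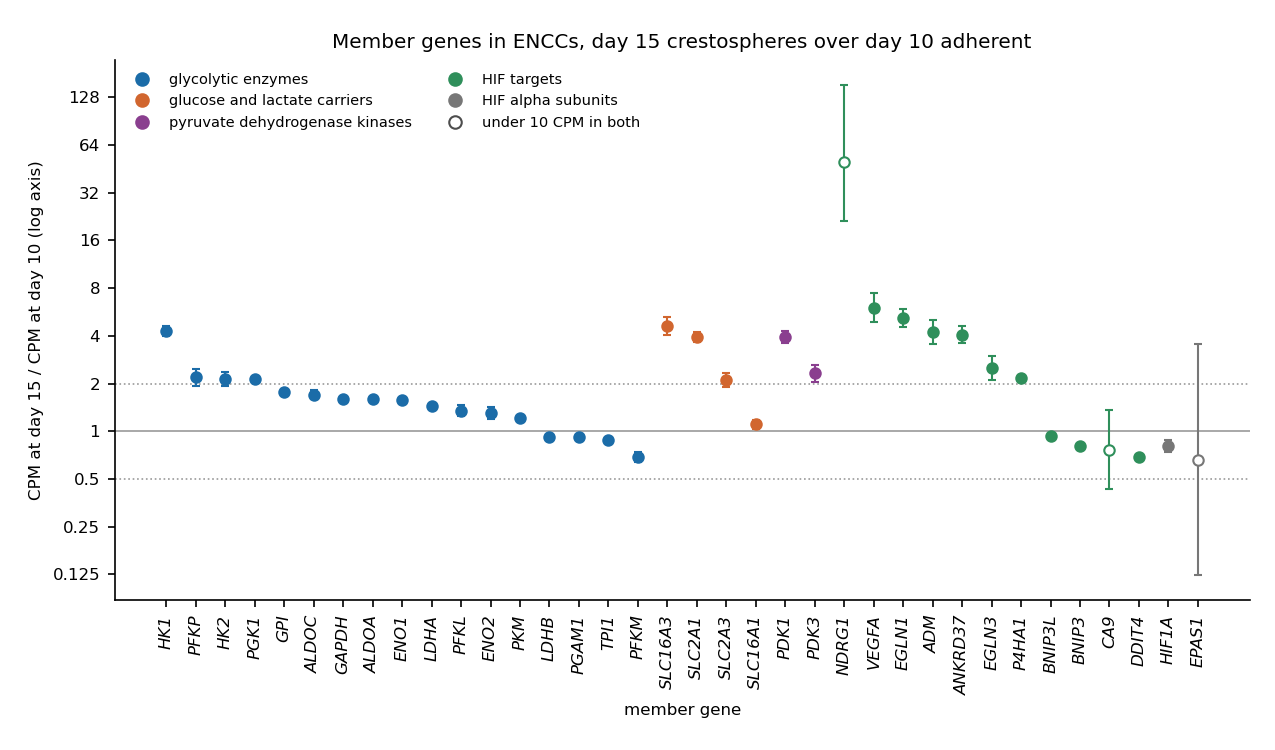
Ratio of CPM in day 15 ENCCs to CPM in day 10 ENCCs for each of the 36 members (log axis), coloured by role, with 95% counting intervals and dotted lines at 2-fold. The 2 kinases and 3 of the 4 carriers lie above 2, the enzymes lie between 0.689 and 4.27, and the HIF targets split into 7 above 2 and 4 below 1.

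At the entry to the pathway, both glucose carriers and both hexokinases were higher at day 15. SLC2A1, which encodes the widely expressed glucose carrier GLUT1, was at 21.6 CPM (799 UMIs) in day 10 ENCCs and 84.6 CPM (4727 UMIs) in day 15 ENCCs, 3.91-fold higher (3.63 to 4.22). HK1, which encodes the hexokinase that traps glucose as glucose 6-phosphate, was at 21.8 and 93.1 CPM, 4.27-fold higher (3.97 to 4.61). SLC2A3, which encodes the high-affinity carrier GLUT3, went from 14.2 to 29.8 CPM, a ratio of 2.10 (1.90 to 2.32). HK2, the hexokinase better known from muscle and tumours, went from 13.4 to 28.8 CPM, a ratio of 2.14 (1.94 to 2.37).

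The exit from the pathway also differed between the stages. SLC16A3, which encodes the lactate exporter MCT4, was at 6.85 CPM at day 10 and 31.6 CPM at day 15, 4.61-fold higher (4.04 to 5.28), whereas SLC16A1, which encodes the lactate carrier MCT1, was at 39.2 and 43.3 CPM (ratio 1.11). SLC16A3 therefore made up 14.9% of the UMIs of these 2 carriers at day 10 (Clopper-Pearson interval 13.2 to 16.7) and 42.2% at day 15 (40.6 to 43.7). LDHA, the subunit that favours lactate formation, went from 1049 to 1518 CPM (ratio 1.45), while LDHB, the other subunit of lactate dehydrogenase, went from 1437 to 1329 CPM (ratio 0.924). LDHA accordingly made up 42.2% (41.9 to 42.5) of the UMIs of the pair at day 10 and 53.3% (53.1 to 53.6) at day 15. PDK1 and PDK3 encode kinases that shut the pyruvate dehydrogenase complex, the gate to the mitochondria. PDK1 was at 16.2 and 63.8 CPM (3.95-fold higher, 3.62 to 4.31) and PDK3 at 9.20 and 21.3 CPM (2.32-fold higher, 2.05 to 2.62).

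Between these ends the glycolytic enzymes moved less. PGK1, which makes the first ATP of the pathway, was called higher at 395 against 844 CPM (ratio 2.13), as was PFKP, the platelet form of phosphofructokinase, at 9.07 against 19.9 CPM (ratio 2.19). GPI, ALDOC, GAPDH, ALDOA and ENO1 had ratios between 1.57 and 1.77, all short of the 2-fold rule. GAPDH alone went from 5101 to 8106 CPM and so supplied most of the summed difference of the enzymes, which was 13102 CPM at day 10 and 18214 CPM at day 15 (ratio 1.39). In all, 16 members have named pseudogenes in GENCODE 29, 62 of them for GAPDH and 39 for BNIP3, and none of these is a row of the files, so reads shared with such copies leave these levels uncertain. TPI1 (ratio 0.882), PGAM1 (0.915) and LDHB were slightly lower at day 15. TMM and median-ratio scaling, which moved the median log2 ratio of all genes from -0.14 to 0.06 and 0.05, turned PGAM1, LDHB and the HIF target BNIP3L to above 0, and TMM turned TPI1 as well. PFKM, the muscle form of phosphofructokinase, was lower at 42.8 against 29.5 CPM (ratio 0.689), and its share of the phosphofructokinase UMIs went from 57.9% to 37.2%.

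The HIF targets fell into a higher and a lower group. VEGFA, the angiogenic growth factor, went from 2.81 CPM (104 UMIs) to 16.9 CPM (945 UMIs), 6.01-fold higher (4.91 to 7.43). EGLN1, the main oxygen-sensing prolyl hydroxylase, went from 7.12 to 36.7 CPM (5.16-fold, 4.53 to 5.89), and EGLN3, an inducible relative, from 4.68 to 11.7 CPM (2.50-fold). ANKRD37, an ankyrin repeat gene, went from 7.66 to 31.2 CPM (4.07-fold), ADM, the peptide hormone adrenomedullin, from 4.28 to 18.0 CPM (4.22-fold), and P4HA1, a collagen prolyl hydroxylase subunit, from 66.0 to 143 CPM (2.17-fold). NDRG1 was near absent at day 10, with 5 UMIs over all ENCCs, and had 375 UMIs (6.71 CPM) at day 15, a ratio of 49.6 with a wide counting interval of 21.1 to 154, but it stayed under the 10 CPM needed for a call. DDIT4, an inhibitor of mTORC1 signalling, went the other way from 573 to 396 CPM (ratio 0.691), as did the mitophagy receptors BNIP3, from 399 to 324 CPM (0.812), and BNIP3L, from 88.2 to 82.7 CPM (0.937). Because DDIT4 and BNIP3 hold most UMIs of the group, the summed HIF targets were slightly lower at day 15 (1154 against 1068 CPM, ratio 0.925). The sign of this sum turned under 3 other settings, with a log2 ratio of 0.07 after TMM or median-ratio scaling and 0.12 in G1 cells alone, against -0.11. Of the 9 targets that reached 10 CPM, 6 were called higher and 0 lower, against 8.1% and 5.39% of all genes. Of these 6, all but P4HA1 were under 10 CPM at day 10 and could not have been called lower.

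The genes for the factor itself did not follow its targets. HIF1A was at 28.6 CPM at day 10 and 23.1 CPM at day 15 (ratio 0.807, interval 0.743 to 0.876). EPAS1, which encodes HIF-2 alpha, had 4 UMIs in the ENCCs of each stage. Of 10 compared genes of HIF control, 0 were called in either direction, against 8.1% higher and 5.39% lower over all genes. ARNT had a ratio of 0.616, EGLN2 was at 48.1 and 33.0 CPM and TCEB2, a subunit of the complex that removes HIF alpha, at 174 and 340 CPM.

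The promoters of members that behaved differently are shown to let their HIF core letters be compared. HIF recognises a short core, and both of its forms, ACGTG and GCGTG, were searched on both strands in the RefSeq promoter windows of GRCh38.p14, which run from 250 bases before to 50 bases after a start. Overlapping matches on opposite strands were counted separately. Windows were found for 31 of the 36 members (57 windows, since some genes have several starts), and 38 of the 57 (66.7%) held either form, against 48.4% of all 35116 windows. Among the windows of members called higher in ENCCs the share was 60.7% (17 of 28). ACGTG alone was in 42.1% of member windows, 35.7% of those of members called higher and 21.4% of all windows. For GCGTG the shares were 40.4%, 39.3% and 36.5% in the same order. ANKRD37 (chr4:185396591-185396890, plus strand) and EGLN1 (chr1:231422238-231422537, minus strand) were called higher, as was PDK1 (chr2:172555840-172556139, plus strand), whereas BNIP3 (chr10:131981874-131982173, minus strand) was not. Each is written 5′ to 3′ on the strand of its gene, with the matches in capitals.
ANKRD37: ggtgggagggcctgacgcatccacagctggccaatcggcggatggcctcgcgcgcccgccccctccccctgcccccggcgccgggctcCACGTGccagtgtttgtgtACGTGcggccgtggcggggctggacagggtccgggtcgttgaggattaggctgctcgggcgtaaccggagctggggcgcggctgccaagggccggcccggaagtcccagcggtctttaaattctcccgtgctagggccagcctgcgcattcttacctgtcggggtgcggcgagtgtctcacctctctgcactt
EGLN1: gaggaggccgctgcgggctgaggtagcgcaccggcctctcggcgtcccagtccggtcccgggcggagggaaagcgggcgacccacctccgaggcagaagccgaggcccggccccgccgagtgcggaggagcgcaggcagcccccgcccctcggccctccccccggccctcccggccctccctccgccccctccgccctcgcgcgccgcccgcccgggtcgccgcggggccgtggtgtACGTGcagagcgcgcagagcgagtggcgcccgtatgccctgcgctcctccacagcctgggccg
PDK1: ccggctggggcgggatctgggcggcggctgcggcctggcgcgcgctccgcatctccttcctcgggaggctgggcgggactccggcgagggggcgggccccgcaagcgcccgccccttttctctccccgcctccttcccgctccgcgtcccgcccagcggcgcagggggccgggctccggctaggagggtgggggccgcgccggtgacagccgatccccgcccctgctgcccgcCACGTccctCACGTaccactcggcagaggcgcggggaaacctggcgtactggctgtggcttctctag
BNIP3: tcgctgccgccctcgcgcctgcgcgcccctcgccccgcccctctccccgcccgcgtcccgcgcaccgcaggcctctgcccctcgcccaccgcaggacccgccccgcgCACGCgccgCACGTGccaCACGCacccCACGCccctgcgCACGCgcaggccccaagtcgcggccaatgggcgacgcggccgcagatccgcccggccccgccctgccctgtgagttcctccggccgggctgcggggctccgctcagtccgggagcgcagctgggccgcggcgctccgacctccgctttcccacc
The ANKRD37 window held 3 matches to ACGTG, that of EGLN1 held 1 and the PDK1 window shown held 2. A second PDK1 window (chr2:172555123-172555422, plus strand) held 0 of either form. The BNIP3 window, whose gene was lower at day 15, held more than any of these, with 2 matches to ACGTG and 4 to GCGTG. EGLN3, which was called higher, had no match in its single window. Within these windows the letters thus occurred both in members called higher and in others. Sites outside the windows were not searched, members without a window could not be compared, and binding by HIF was not tested.

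Shares of cells were compared after thinning every cell to 3000 UMIs, which left out 2 ENCCs at day 10. A UMI of SLC2A1 was found in 5.96% of day 10 ENCCs (Clopper-Pearson interval 5.31 to 6.65) and 18.7% of day 15 ENCCs (17.6 to 19.8). For HK1 the shares were 5.98% and 24.0%, for PDK1 4.55% and 16.4%, for EGLN1 2.18% and 10.1%, and for NDRG1 0 of 4919 cells, an upper bound of 0.0750%, and 1.99% (1.62 to 2.42). DDIT4 was detected in 76.0% and 55.1% of cells. Shares were higher at day 15 with intervals that did not overlap for 22 of the 36 members. The same count was not made over all genes, so it does not set the members apart from them. The contribution of free RNA to these shares was not measured.

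The summed carriers, kinases and enzymes were higher at day 15 in each cell cycle phase, and the summed HIF targets in G1 alone. Summed carriers were 2.99-fold higher at day 15 in G1 cells (2.80 to 3.19), at 138 against 69.0 CPM in S cells and 2.08-fold in G2M cells (1.93 to 2.23). The kinases were 4.39-fold higher in G1, 2.91-fold in S and 2.96-fold in G2M. The enzymes were 1.56-fold, 1.27-fold and 1.37-fold higher in the same order, and the HIF targets had ratios of 1.09, 0.850 and 0.893. The count of members called higher, 15 over all phases, was 7 in S cells alone. The share of all genes called in S cells was not computed, so this count does not set the members apart from them.

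ENCCs were also divided by the authors into numbered subclusters, 1 to 4 at day 10 and 1′ to 4′ at day 15, drawn separately at each stage. As the subclusters were built from the same counts, their differences are given as descriptions. The members varied among the day 10 subclusters about as much as other genes, and among those of day 15 more widely. At day 10, 2 of 27 members (7211 genes compared, 11.3% called) differed at least 2-fold between the highest and the lowest subcluster, with a median range of 0.39 on the log2 scale against 0.45 for all genes. At day 15, 19 of 34 members did so (7082 genes compared, 25.9% called), with a median range of 1.23 against 0.63. SLC2A1 was at 20.3, 19.6, 17.4 and 26.1 CPM in ENCC 1 to 4, and at 136, 36.7, 73.2 and 338 CPM in ENCC 1′ to 4′. The day 15 values run 9.22-fold (8.27 to 10.3) from the lowest to the highest, with no overlap among their intervals.

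ENCC 2′, the largest subcluster with 2377 cells, was the lowest of the 4 for 30 of 34 members, against 16.8% of all genes. ENCC 1′ (1665 cells) was above ENCC 2′ for 33 of 34 members, and 17 were at least 2-fold higher, compared with 1.36% of the 6700 genes tested. The small ENCC 4′ (138 cells) was above it for 32 of 34, with 18 at least 2-fold higher, compared with 5.87% of the 6851 genes tested. Members under 10 CPM in ENCC 2′, among them ADM and EGLN3, passed the filter through the other subclusters alone. ENCC 2′ could not have been the highest for them, nor could they have been called lower than in ENCC 2′. The same filter held for all genes. The median log2 ratio over ENCC 2′ was 0.98 for the members and -0.07 for all genes in ENCC 1′, and 1.05 and -0.28 in ENCC 4′. ENCC 3′ (727 cells) lay in between, with summed HIF targets 1.40-fold and summed enzymes 1.14-fold those of ENCC 2′.

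**Figure D2:**
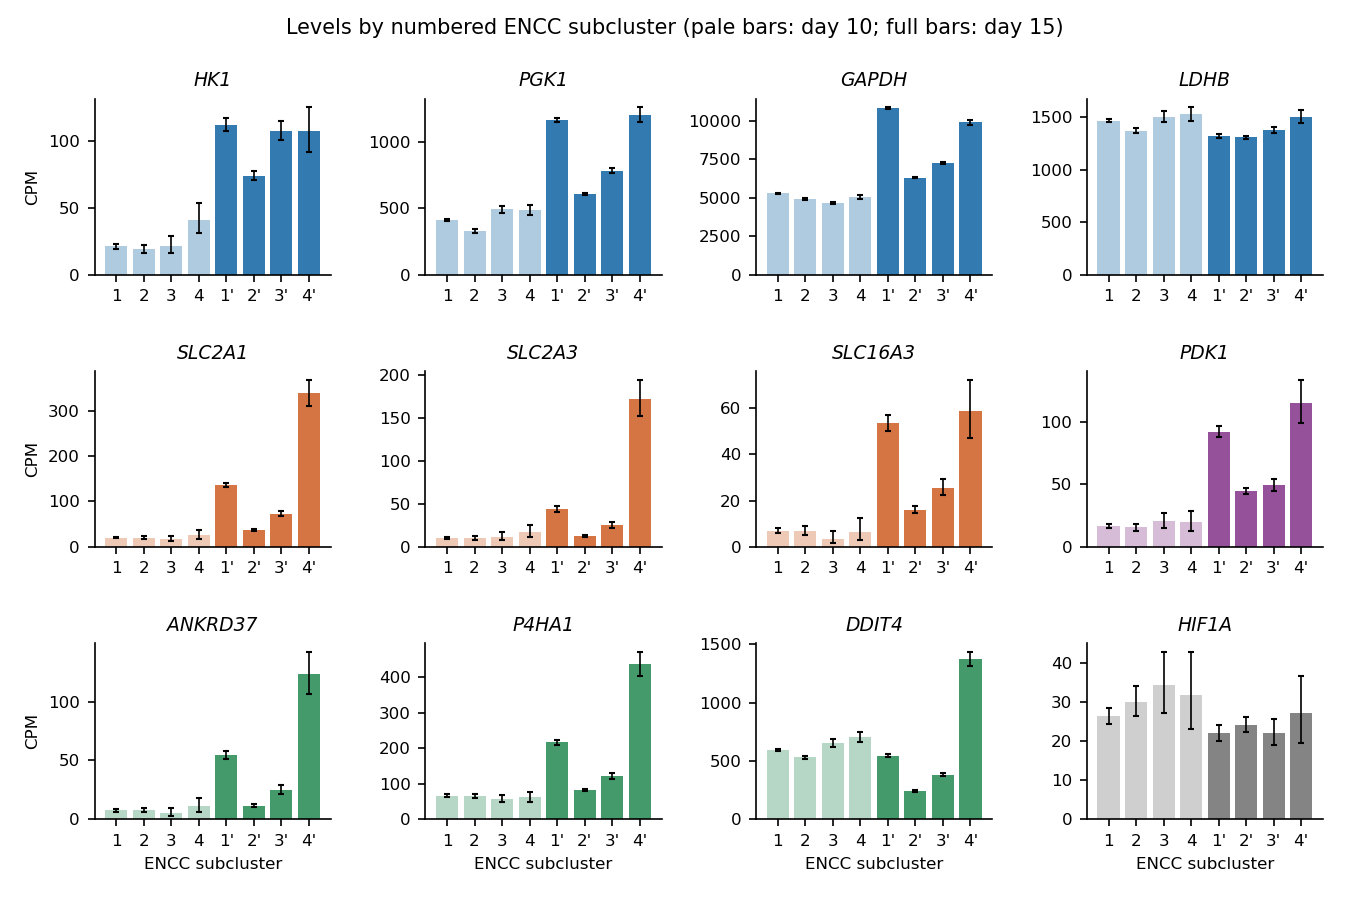
CPM of 12 members in each numbered ENCC subcluster, with 95% Poisson intervals, coloured by role (blue enzymes, orange carriers, purple kinase, green HIF targets, grey HIF alpha). At day 15 the bars of ENCC 1′ and 4′ stand above that of ENCC 2′ with intervals that do not overlap, except for LDHB in ENCC 1′ and HIF1A in both, where the intervals overlap.

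The enzymes were highest in ENCC 1′ (9 of 17) or ENCC 4′ (8 of 17), and most other members in ENCC 4′. The 9 in ENCC 1′ included GAPDH, at 10846 CPM against 6316 CPM in ENCC 2′, and ENO1. ENCC 4′ had the highest level of 9 of 10 HIF targets, 3 of 4 carriers and both kinases. Over all 7082 genes compared, it was highest for 1891 and ENCC 1′ for 1067. Its carriers summed to 616 CPM (577 to 657), which is 5.62-fold the 110 CPM of ENCC 2′, where the enzymes were 1.49-fold higher. SLC2A3 was 13.6-fold higher in ENCC 4′ than in ENCC 2′ (173 against 12.7 CPM), ADM 15.9-fold (89.7 against 5.63 CPM) and EGLN3 15.1-fold (52.8 against 3.50 CPM). DDIT4, the member with the lowest ratio between stages among the HIF targets above 10 CPM, was at 545, 240, 380 and 1376 CPM in ENCC 1′ to 4′, against 529 to 704 CPM in the day 10 subclusters. Its level at day 15 thus lay above every day 10 subcluster in ENCC 4′ and below every one of them in ENCC 2′ and ENCC 3′.

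ENCC 4′ differed from the other day 15 subclusters in other measures too. G1 cells made up 86.2% of it, against 28.6% to 48.7% in ENCC 1′ to 3′, and its median mitochondrial share was 1.93% against 2.57% to 2.86%. The immediate early gene JUN, which dissociation can induce, was at 113 CPM there and at 9.54 to 20.2 CPM in the others, and SOX10 was at 52.8 CPM against 90.8 to 116 CPM. The part of these in the result was not tested. Without ENCC 4′, 17 of the members still differed 2-fold among the remaining subclusters. The share of all genes that did so was not computed.

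Separation of the stages held across subclusters for many members. For 16 of 34 members all 4 day 15 subclusters lay above all 4 day 10 subclusters, compared with 14.7% of the 7961 genes tested, and 0 members lay below throughout, compared with 27.6%. The 16 were HK1, GPI, ALDOA, GAPDH, PGK1, ENO1, SLC2A1, SLC16A3, PDK1, PDK3, VEGFA, ADM, EGLN1, P4HA1, NDRG1 and ANKRD37. Of these, SLC16A3, VEGFA, ADM, EGLN1 and NDRG1 were under 10 CPM in every day 10 subcluster. They were compared through their day 15 levels alone and could not have lain below throughout. In the lowest day 15 subcluster, ENCC 2′, HK1 was at 74.0 CPM and EGLN1 at 24.1 CPM, above their highest day 10 values of 41.3 and 8.69 CPM, both in ENCC 4. Other members reached day 10 levels in ENCC 2′. SLC2A3 (12.7 CPM) and EGLN3 (3.50 CPM) lay within their day 10 ranges of 9.97 to 17.4 CPM and 1.73 to 6.52 CPM.

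Enzymes and the other members also varied together from cell to cell. In day 15 ENCCs thinned to 3000 UMIs, the median cell held 50 UMIs of the 17 enzymes, with 5% of cells at or below 22 and 5% at or above 101. At day 10 the median was 38, with the same limits at 22 and 59. The lower end was thus alike at both stages, and the upper end was not. Across cells, the summed enzymes and the summed carriers, kinases and HIF targets had a Pearson r of 0.33 at day 10 (4919 cells) and 0.64 at day 15 (4934 cells). The range of r over the day 10 subclusters was 0.30 to 0.35, and over the day 15 subclusters 0.45 to 0.64. Within cycle phases of day 15 it was 0.59 to 0.66. The cells of each stage share 1 library, and thinning gave all of them the same depth.

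**Figure D3:**
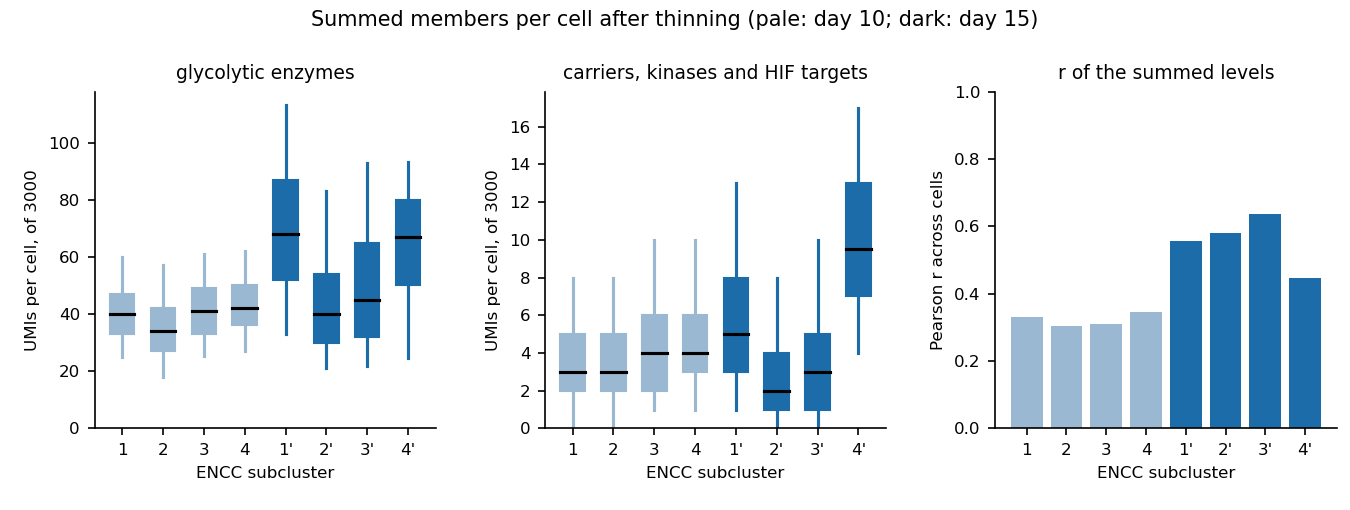
UMIs per cell of the summed enzymes (left) and of the summed carriers, kinases and HIF targets (middle), of 3000 after thinning, by ENCC subcluster. Boxes span the 25th to 75th percentile, black lines mark medians and thin lines the 5th to 95th percentile, and the right panel gives Pearson r between both sums across cells. The boxes of ENCC 1′ and 4′ stand highest and r is higher in each day 15 subcluster than in any of day 10.

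When every gene at 10 CPM or more was ranked by its correlation with the summed UMIs of the other members across ENCCs, 19 of the 50 highest of 6388 genes were members at day 15, and 14 of the 50 highest of 6499 at day 10. At day 15 GAPDH (r = 0.75), ENO1 (0.68), PGK1 (0.62), ALDOA (0.60) and LDHA (0.60) led the members. Among the members that are not enzymes, DDIT4 (0.44) and P4HA1 (0.40) had the highest r. The median r was 0.25 over the 33 members compared and -0.02 over all genes. The non-members with the highest r were IGFBP2 (0.63), which encodes a binding protein for insulin-like growth factors, FAM162A (0.63) and WSB1 (0.56), both known HIF targets, and VIM (0.55), the intermediate filament vimentin. Sparse genes reach a lower r at this depth, so the order follows abundance in part. The summed members had an r of -0.49 with the percent of mitochondrial UMIs at day 15 and -0.16 at day 10, and of -0.04 and -0.02 with UMIs per cell before thinning.

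Outside ENCCs the members were distributed differently. Day 10 neuro-epithelial progenitors (NEP, 1811 cells, with their marker PAX6 at 572 CPM) had fewer enzyme UMIs than ENCCs, with a summed ratio of 0.863 (0.858 to 0.868), but 2.68-fold more carrier UMIs (2.55 to 2.82). In that comparison 7 of 30 members were called higher and 0 lower, against 12.6% and 2.71% of 7726 genes. The 7 were ADM (77.7 against 4.28 CPM), EGLN3 (48.9 against 4.68 CPM), SLC2A3 (88.6 against 14.2 CPM), ENO2, the neuronal enolase (78.9 against 21.3 CPM), PFKP (31.2 against 9.07 CPM), SLC2A1 (52.6 against 21.6 CPM) and SLC16A3 (2.33-fold). Of these, ADM, EGLN3, PFKP and SLC16A3 were under 10 CPM in ENCCs. They passed the filter through NEP alone, so they could not have been called lower. The same filter held for all genes. ADM, the leading gene, was 18.2-fold higher (15.4 to 21.6), whereas VEGFA (4.42 against 2.81 CPM), EGLN1 (8.69 against 7.12 CPM) and PDK1 (13.8 against 16.2 CPM) were not called. After TMM or median-ratio scaling the call was 5 higher and 2 lower.

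Day 10 non-neural ectoderm (NNE, 239 cells, with EPCAM at 248 CPM) had the highest SLC2A3 level of all classes, 416 CPM, and SLC2A1 at 106 CPM. Its carriers summed to 629 CPM, which is 7.68-fold those of ENCCs (7.17 to 8.22), while its HIF targets summed to 0.463 of theirs (0.434 to 0.493) and PDK1 was at 4.87 CPM. NNE was also the single class in which EPAS1 reached 10 CPM, at 15.7 CPM against 0.872 CPM or less in the other deposited cell types. Cranial placode cells (CP, 324 cells) had 1.40-fold the summed HIF targets of ENCCs, led by BNIP3 at 744 against 399 CPM.

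**Figure D4:**
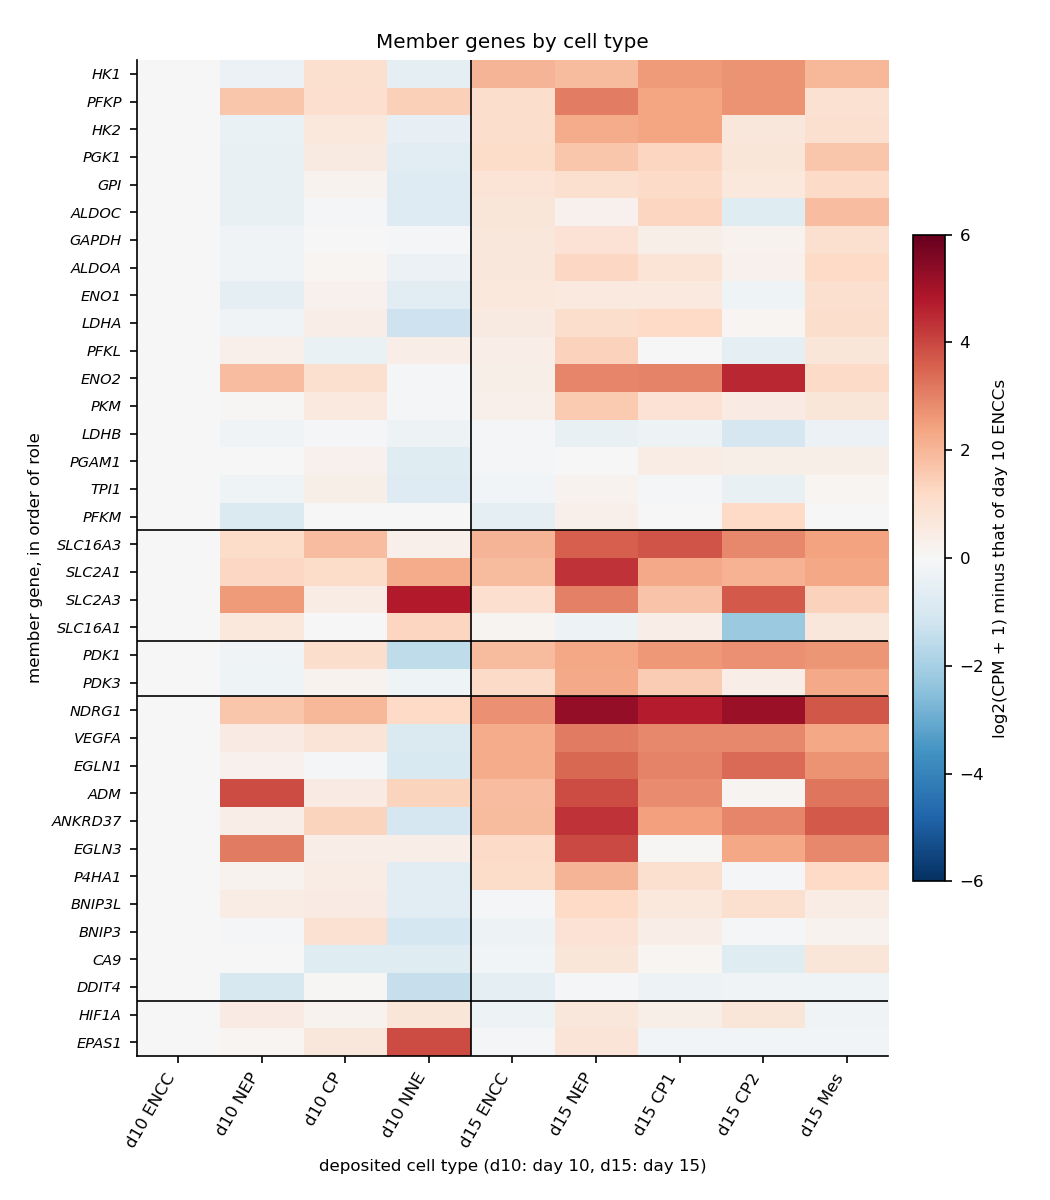
Level of each member in each deposited cell type, as log2(CPM + 1) minus the value in day 10 ENCCs (red above, blue below), with lines between roles and between stages. The day 15 columns are red for most carriers, kinases and HIF targets, and SLC2A3 and EPAS1 stand out in day 10 NNE and ADM and EGLN3 in day 10 NEP.

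At day 15 the non-ENCC classes were small, with 43 to 208 cells. The cluster labelled NEP (104 cells) had PAX6 at 112 CPM and EPCAM, a marker of non-neural ectoderm, at 41.0 CPM, so its label was only in part borne out. Among the deposited cell types, leaving subclusters aside, it had the highest level of SLC2A1 (459 CPM), ANKRD37 (172 CPM), EGLN1 (86.3 CPM), EGLN3 (88.0 CPM), P4HA1 (278 CPM) and NDRG1 (43.6 CPM), and its summed HIF targets were 2.11-fold those of ENCCs (2.02 to 2.19). CP1 (208 cells) had 6 of 34 members called higher than ENCCs and 1 lower, against 16.2% and 6.36% of 7706 genes. The share of members called higher was thus near that of all genes. ENO2 (173 against 27.7 CPM), NDRG1 (28.9 against 6.71 CPM) and SLC16A3 (107 against 31.6 CPM) led the 6, and EGLN3 (5.02 against 11.7 CPM) was the lower one. NDRG1 passed the filter through CP1 alone and EGLN3 through ENCCs alone, so each could be called only in the direction seen. The count of 7 depended on scaling and became 4 after TMM. CP2 (43 cells) had PAX6, a marker of NEP, at 381 CPM, which goes against its label, and its ENO2 was at 517 CPM, 30.3% of enolase UMIs against 1.21% in ENCCs. Mes cells (47 cells, TWIST1 at 162 CPM) had 1.26-fold the summed enzymes of ENCCs.

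Directions over all kept cells differed from those in ENCCs for some members. Over all kept cells, 11 of 33 members were called higher at day 15 and 0 lower, against 7.43% and 8.49% of 7456 genes. As for all genes, any member under 10 CPM at day 10 could not have been called lower. Of these members, 4 had opposite directions in ENCCs and in all kept cells. ADM was at 23.3 CPM at day 10 and 20.1 CPM at day 15 over kept cells (ratio 0.864), against 4.22-fold higher in ENCCs. EGLN3 had ratios of 0.828 and 2.50, SLC2A3 of 0.718 and 2.10, and SLC16A1 of 0.924 and 1.11, over kept cells and in ENCCs in turn. Even within day 10 ENCCs, the 256 cells outside the numbered subclusters held much of the signal, with ADM at 44.9 CPM against 0.724 to 2.23 CPM in ENCC 1 to 4. The NEP markers PAX6 and WNT2B summed to 83.8 CPM over all day 10 ENCCs and 13.8 to 23.1 CPM in the numbered ones, and their part in these levels was not tested. In numbered ENCCs alone the log2 ratio between stages was 2.84 for ADM, 1.99 for EGLN3 and 1.41 for SLC2A3.

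Genes of the same pathways outside the 36 gave a mixed picture. For each list below, the share over all 7101 genes compared in ENCCs was 8.1% called higher and 5.39% lower. Of 19 other HIF targets compared in ENCCs, 10 were called higher and 0 lower, and all 19 had a log2 ratio above 0. The share of all genes above 0 was not computed. ANGPTL4, a secreted regulator of lipid metabolism, was at 2.68 and 38.0 CPM (14.2-fold), STC2 at 5.20 and 27.2 CPM (5.23-fold) and FAM162A at 133 and 342 CPM (2.57-fold). These too were lowest in ENCC 2′ at day 15, where all 22 compared were below ENCC 1′, with FAM162A at 187 against 571 CPM. Any of the 22 under 10 CPM in ENCC 2′ could not have been above ENCC 1′. Of 8 other glycolysis genes compared, 2 were called higher and 1 lower. PFKFB3 and PFKFB4, which make the allosteric activator of phosphofructokinase, were 3.86-fold and 2.78-fold higher at day 15, and BPGM, which makes 2,3-bisphosphoglycerate, was lower (20.4 against 9.02 CPM). In contrast, of 7 genes of the pentose phosphate pathway 0 were called higher and 1 lower, TKT, at 654 and 260 CPM. Of 7 genes of pyruvate entry into mitochondria 0 were called in either direction, with a median log2 ratio of -0.17 against -0.14 for all genes. Of 8 ATF4 response genes 3 were called higher, ASNS (8.84-fold), TRIB3 (7.92-fold) and VLDLR (3.42-fold). Between ENCC 1′ and ENCC 2′ 0 of these 8 were called, where 1.36% of 6700 genes were called higher in ENCC 1′. Of the 8, 7 were above 0, with a median of 0.21. Of 6 immediate early genes 2 were called higher, DUSP1 and JUN, and 1 lower, EGR1. Among the genes named here, ANGPTL4, STC2, PFKFB3, PFKFB4, ASNS, TRIB3, VLDLR, DUSP1 and JUN were under 10 CPM at day 10. They passed the filter through day 15 alone, so they could not have been called lower. BPGM and EGR1 were under 10 CPM at day 15 and could not have been called higher. Endothelial and blood cell markers summed to 4.83 and 0.0895 CPM in day 15 ENCCs.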

How the data were processed

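Single cells of 2 stages were captured with the 10x Chromium 3′ kit, 1 library per stage, each from 2 pooled biological repeats. The labels name Cell Ranger, Seurat 4.0.4 and GRCh38, while the study's methods name kallisto and bustools, so which tool made the tables is not settled here. The deposited matrices hold raw UMI counts per gene and cell, made by the authors, with no normalization. The deposited metadata give, for each cell, the percent of mitochondrial and of ribosomal protein UMIs, and the authors' cell type, subcluster and cycle phase for the cells they kept. No doublet call was made here, and the kept cells were used as annotated.

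Counts were summed per class and divided by the class total (CPM). Differences are on the log2(CPM + 1) scale, genes under 10 CPM in both classes were left out of calls, and a call needs 2-fold. A gene that reached 10 CPM in only 1 of the classes could be called higher there but not lower. Poisson intervals for levels, conditional binomial intervals for ratios and Clopper-Pearson intervals for shares are at 95% and cover counting error only. With 1 library per stage there is no test between stages. The floor of 3 counts was 0.0812 CPM in day 10 ENCCs and 0.0537 CPM in day 15 ENCCs. For shares and correlations, cells were thinned to 3000 UMIs. edgeR 4.0.16 and DESeq2 1.42.0 (R 4.3.3) gave scaling factors only; the rest ran in Python 3.11.15 with numpy 2.4.6, scipy 1.17.1 and pandas 2.3.3. Of related gene lists, the 5 genes with the largest log2 ratio in ENCCs could be named, along with marker genes; IGFBP2, WSB1 and VIM were named after their values were seen. The members and lists were chosen with earlier results of these data known.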

Additional observations from a re-analysis of the deposited data

Results flagged for a closer look

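For 5 members the ratio of G2M over G1 cells in ENCCs lay above 1 at day 10 and below 1 at day 15, with counting intervals that did not hold 1. The CPM ratio was 1.23 at day 10 and 0.587 at day 15 for SLC2A1, 1.43 and 0.903 for BNIP3, 1.16 and 0.966 for TPI1, 1.10 and 0.875 for BNIP3L, and 1.03 and 0.879 for PGAM1. These members were picked by this pattern, and the share of all genes that show it is not given, so it does not set them apart. With 1 library per stage, the difference between stages was not tested.

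EPAS1 was higher in the cells that the authors' filter removed than in those it kept. At day 10 it was at 2.90 against 0.687 CPM (ratio 4.23, interval 2.68 to 6.71, 44 UMIs in removed cells), and at day 15 at 0.568 against 0.0829 CPM (ratio 6.86, 2.34 to 24.3, 14 UMIs in removed cells).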

How the results depend on the processing

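No replicate could be left out, since each stage is 1 library. No paired analysis was possible because the groups share no replicate numbers beyond 1 library each. The count of 15 members higher in ENCCs became 8 at 3-fold and 7 in S cells, and was 10 to 20 under the other settings. The counts over all genes were not made at 3-fold or in S cells. Of 113 summary values under an alternative, 78 stayed within their error or within 1.5 times the count, 32 moved and 3 reversed; of 456 values of single members, 16 lost and 5 gained a call and 0 reversed. Of the 15 called members, 6 passed the filter and were called under every setting at 2-fold (HK1, SLC2A1, SLC16A3, PDK1, EGLN1 and ANKRD37). The log2 ratio of the summed enzymes (0.48) became 0.66 with TMM, 0.66 with median-ratio scaling, 0.47 without mitochondrial and ribosomal protein genes, 0.48 as a mean per cell, 0.46 in numbered subclusters, 0.46 in cells of 5000 to 15000 UMIs, 0.64 in G1, 0.34 in S and 0.46 in G2M. The summed carriers (1.21) became 1.40 with TMM, 1.39 with median-ratio scaling, 1.33 in numbered subclusters, 1.58 in G1, 1.00 in S and 1.05 in G2M. The summed HIF targets (-0.11) reversed to 0.074 with TMM, 0.069 with median-ratio scaling and 0.12 in G1, and became -0.24 in S and -0.16 in G2M. Over all kept cells the count of 11 became 17 at 1.5-fold and 6 at 3-fold. Between CP1 and ENCCs the count of 7 became 4 with TMM, 4 with median-ratio scaling, 15 at 1.5-fold and 3 at 3-fold. Across day 10 subclusters the count of 2 became 4 without mitochondrial and ribosomal protein genes, 1 as a mean per cell, 0 with a pseudocount of 5 CPM, 5 with no filter, 6 at 1.5-fold and 0 at 3-fold, and the 19 at day 15 became 29 at 1.5-fold. The cells in S, the cells in G2M, GC centring, shares without thinning and the omission of ENCC 4′ were chosen after seeing the data. The cause of these moves was not tested.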
